A study of Mus musculus with 10 samples.

Results

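The genes described here encode the secreted ligands and the surface receptors of 2 signalling systems of blood and lymph vessels, the vascular endothelial growth factors (VEGFs) and the angiopoietins. They were taken by name: the ligands Vegfa, Vegfb, Vegfc, Figf (also called Vegfd) and Angpt1, the receptors Flt1, Kdr, Tek and Tie1, and the coreceptor Nrp1. All 10 were found among the 27179 Entrez genes of the counts table, and all 10 were among the 15301 genes with enough counts to be tested. The samples were whole lungs of 10 mice, each a separate animal. The 5 mice of the group labelled EpithelialKO carried Cre on 1 Shh allele and floxed IRE1α on both alleles (Shh Cre/+ with IRE1α fl/fl). The 5 mice of the group labelled Flox carried the same floxed alleles and no Cre (Shh +/+ with IRE1α fl/fl). IRE1α, the product of Ern1, senses unfolded protein in the endoplasmic reticulum and splices the Xbp1 transcript, and Shh is expressed in lung epithelium from early development. Loss of IRE1α, the presence of Cre and the altered Shh allele go together in the EpithelialKO mice and cannot be told apart. The labels give no age, sex, strain background or treatment.

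VEGF-A is secreted by alveolar epithelium, above all by AT1 cells, and acts on the neighbouring capillaries through the receptor tyrosine kinases KDR (VEGFR2), which carries most of the growth signal, and FLT1 (VEGFR1), which binds VEGF-A tightly and also acts as a decoy. NRP1 is a coreceptor that presents VEGF-A to KDR and binds class 3 semaphorins. Angiopoietin-1, made by mesenchymal cells around vessels, activates the endothelial receptor TEK (Tie2) and keeps vessels quiet and tight, and TIE1 is an orphan partner of TEK.

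The epithelial ligand stood at similar levels in the groups, whereas the endothelial receptors were lower in EpithelialKO lungs by amounts that did not pass the threshold. Vegfa was at 95.5% of its Flox level (95% interval 84.3% to 108%). Kdr, Flt1, Tek, Tie1 and Nrp1 were at 73.0%, 75.4%, 79.1%, 76.0% and 81.9% of theirs. Among the mesenchymal ligands, Figf was at 68.2% and Angpt1 at 79.0%. With edgeR's quasi-likelihood test, adjusted over all 15301 genes at a threshold of 0.05, 0 of the 10 genes were called, and 0.0392% of all genes were. At an unadjusted p under 0.05, 7 of the 10 were lower (Figf, Kdr, Tie1, Flt1, Angpt1, Tek and Nrp1), against 6.52% of all tested genes, and 0 were higher, against 5.87%. The median log2 fold change of EpithelialKO over Flox was -0.34 over the 10 genes and 0.00084 over all tested genes. DESeq2's Wald test called 3 of them, Figf, Kdr and Tie1 (adjusted p = 0.00476, 0.0133 and 0.0339), where it called 2.42% of the 11352 genes to which it gave an adjusted p. With limma-voom 0 were called, against 0.19% of all genes. Without Flox mouse 5, edgeR called Kdr (adjusted p = 0.0464) and 0.31% of all genes.

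The 10 libraries held 14983829 to 21224412 counts each, and the 10 genes had between 168 and 10844 counts in every mouse. Levels are given as CPM, counts scaled to a common library size. Ern1 lay between 8.05 and 20.5 CPM in Flox and between 10.7 and 26.1 CPM in EpithelialKO (log2 fold change 0.04 ± 0.27, SE). These counts cover the whole gene in whole lung and do not check the genotype labels. Flox mice 4 and 6 had 3949 and 4866 counts of the X-inactivation transcript Xist and at most 2 Y-linked counts, while the other 8 mice had at most 61 Xist counts and at least 2475 Y-linked counts. All 20 endothelial marker genes of a list without the 10 genes were detected and tested. Their summed level lay between 5638 and 6511 CPM in Flox and between 4274 and 6463 CPM in EpithelialKO. RNA of whole lung does not tell fewer endothelial cells from less RNA per cell.

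**Figure D1:**
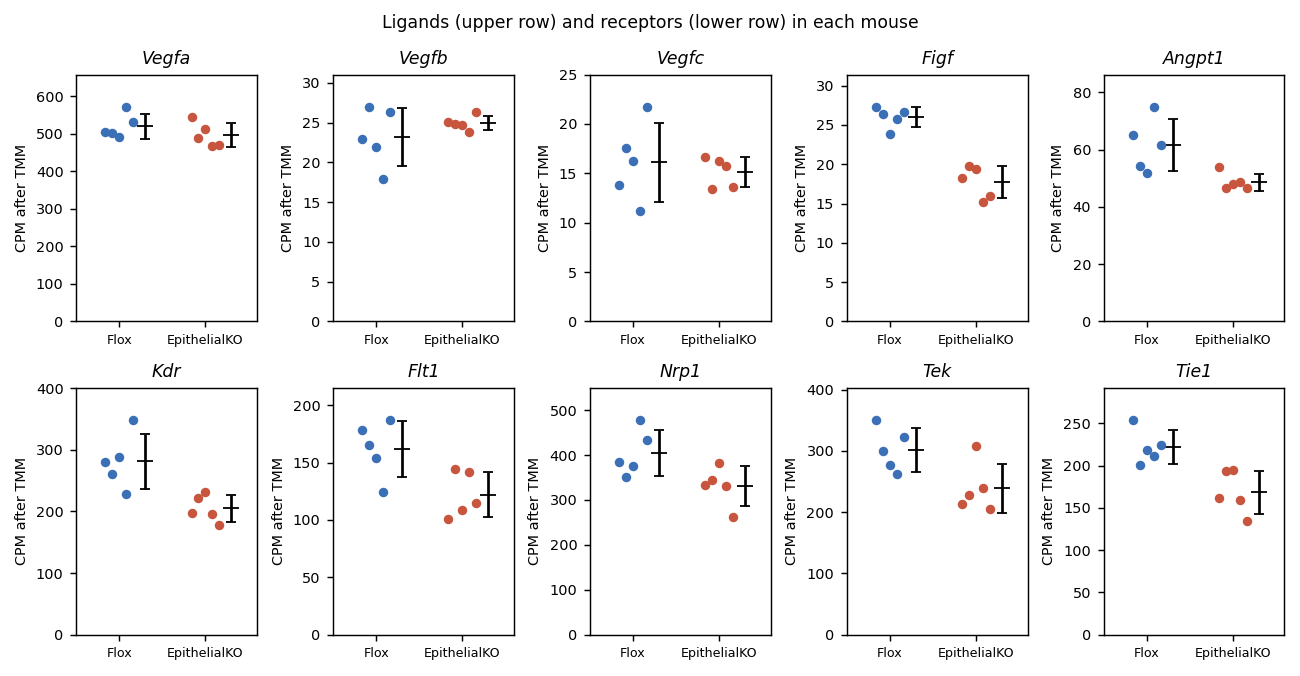
Level of each gene in each mouse, in CPM (counts scaled to a common library size, with TMM factors), with 1 point per mouse and the mean ± SD beside each group of 5; each panel has its own axis from 0. The Figf and Tie1 points of the 2 groups do not overlap, while the Vegfa points span 491 to 572 CPM in Flox and 468 to 546 CPM in EpithelialKO.

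Compared per length, as CPM divided by kilobases of exon (RPKM), Vegfa had the highest level of the 10 genes and Vegfc the lowest. In Flox mice Vegfa was at 148 ± 9.31 RPKM (SD, n = 5), followed by Nrp1 at 112 ± 14.1, and the ranges of these 2 genes did not overlap. Tek (64.2 ± 7.57), Tie1 (48.7 ± 4.39) and Kdr (47.5 ± 7.42) came next, with ranges that overlapped from each gene to the next. Vegfb (18.1 ± 2.86), Flt1 (14.8 ± 2.21), Angpt1 (14.5 ± 2.16) and Figf (12.7 ± 0.634) formed a lower group with overlapping neighbours, and Vegfc was at 6.58 ± 1.63 RPKM. In EpithelialKO mice the order ran from Vegfa (141 ± 9.26 RPKM) through Nrp1 (92.0 ± 12.1) and Tek (50.8 ± 8.61) to Vegfc (6.19 ± 0.620). Exon length was the union over the transcripts of the GENCODE M21 basic annotation, 10961 bases for Flt1 against 1281 for Vegfb. Flt1, whose short transcripts encode the secreted decoy, is therefore understated where those short forms prevail, and gene counts do not separate the forms.

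**Figure D2:**
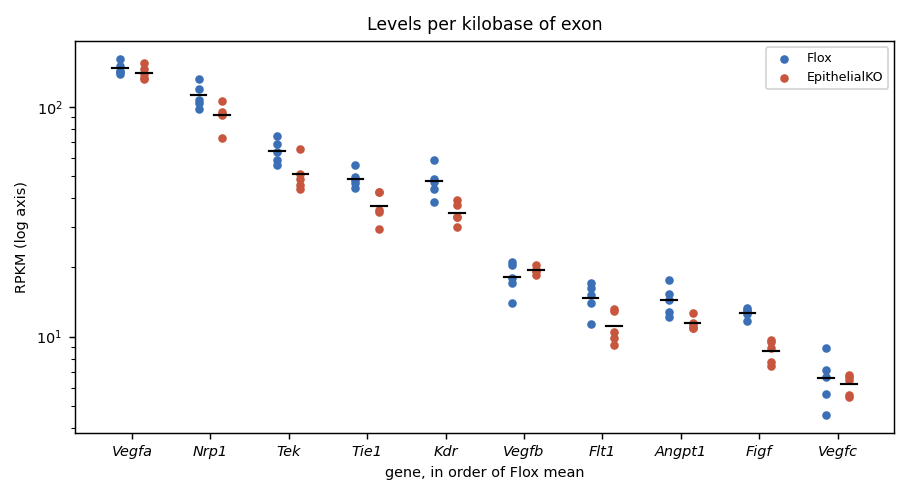
Level of each gene per kilobase of exon (RPKM, log axis) in each mouse, ordered by the Flox mean, with Flox points on the left and EpithelialKO points on the right of each gene and a bar at each group mean. Vegfa stands highest at 148 RPKM in Flox and 141 RPKM in EpithelialKO, and Vegfc lowest at 6.58 and 6.19 RPKM.

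Of the ligands, Vegfa (Entrez 22339, GRCm38 chromosome 17, 46016993 to 46032377, minus strand) was the most abundant per length. It stood at 505, 501, 491, 572 and 533 CPM in Flox mice 2, 3, 4, 5 and 6, and at 546, 488, 513, 468 and 471 CPM in EpithelialKO mice 17, 18, 20, 21 and 22. The groups overlapped, with the highest value in Flox mouse 5 and the lowest in EpithelialKO mice 21 and 22. The log2 fold change was -0.07 ± 0.09 (SE; edgeR adjusted p = 0.802), and its 95% interval, -0.25 to 0.11, bounds a difference in either direction. Markers of AT1 cells, a main source of Vegfa, summed to between 8601 and 11215 CPM in Flox and between 8221 and 12726 CPM in EpithelialKO. Markers of AT2 cells, the surfactant-making epithelium, summed to between 52773 and 64582 CPM and between 64149 and 79529.6 CPM. All 12 AT2 markers had a positive fold change and edgeR called 0. Of them 7 were higher at an unadjusted p under 0.05, against 5.87% of all tested genes. Of the 14 AT1 markers 10 were negative and 1 was higher at that p. The part of the AT1 and AT2 markers in the Vegfa values was not tested. Splice forms of Vegfa, which differ in how tightly the protein binds matrix, are not separated by these counts.

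Figf encodes VEGF-D, a ligand of the lymphatic receptor FLT4, and alveolar fibroblasts express it strongly (Entrez 14205, chromosome X, 164373522 to 164402650, plus strand). It stood at 27.3, 26.4, 23.9, 25.8 and 26.7 CPM in Flox mice 2 to 6, and at 18.2, 19.8, 19.4, 15.2 and 15.9 CPM in EpithelialKO mice 17, 18, 20, 21 and 22. Every EpithelialKO mouse lay below every Flox mouse. The log2 fold change was -0.55 ± 0.12 (SE; unadjusted p = 0.000301, edgeR adjusted p = 0.103), the largest of the 10 genes in size, from 26.0 ± 1.30 to 17.7 ± 2.05 CPM (SD, n = 5 each). Figf and Tie1 were the 2 of 10 genes whose EpithelialKO values all lay below all Flox values, against 1.48% of all tested genes, and in 0 of the 10 did they all lie above, against 1.63%. Figf lies on the X chromosome. The Flox mice with high Xist, 4 and 6, had 23.9 and 26.7 CPM, beside 25.8 to 27.3 CPM in the other 3 Flox mice. An effect of sex on Figf was not tested. Markers of fibroblasts summed to between 3152 and 4157 CPM in Flox and between 2713 and 3169 CPM in EpithelialKO, and 12 of the 13 had a negative fold change. Their part in the Figf difference was not tested.

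Angpt1 (Entrez 11600, chromosome 15, 42424667 to 42676977, minus strand) stood at 65.1, 54.5, 51.9, 75.0 and 61.7 CPM in Flox mice 2 to 6. In EpithelialKO mice 17, 18, 20, 21 and 22 it stood at 53.8, 46.5, 47.9, 48.6 and 46.6 CPM. Only EpithelialKO mouse 17 lay within the Flox range, just above Flox mouse 4. The log2 fold change was -0.34 ± 0.11 (SE; unadjusted p = 0.00608, edgeR adjusted p = 0.210). Pericyte markers summed to between 409 and 517 CPM in Flox and between 325 and 514 CPM in EpithelialKO, and their part in the difference was not tested. The exons of Angpt1 share 737 bases with those of the antisense gene Gm17473, and since the strand setting of the counting is not given, reads of the 2 genes cannot be told apart there.

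Vegfb and Vegfc did not separate the groups. Vegfb, a ligand of FLT1 that heart, muscle and brown fat express strongly (Entrez 22340, chromosome 19, 6982472 to 6987651), lay between 18.0 and 27.0 CPM in Flox and between 23.8 and 26.4 CPM in EpithelialKO. Its log2 fold change was 0.10 ± 0.13 (SE, 95% interval -0.16 to 0.37), the only positive one of the 10. Cardiomyocyte markers lay between 101 and 268 CPM in Flox and between 72.1 and 283 CPM in EpithelialKO in sum. Vegfc, the main ligand of the lymphatic receptor FLT4 (Entrez 22341, chromosome 8, 54077532 to 54186454), lay between 11.2 and 21.7 CPM in Flox and between 13.4 and 16.6 CPM in EpithelialKO. Its log2 fold change of -0.09 ± 0.17 (SE, 95% interval -0.45 to 0.27) became 0.093 without Flox mice 4 and 6.

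The 5 receptor genes all had negative fold changes, and the promoter windows of the VEGF-A receptors Kdr and Flt1 are shown because endothelial promoters typically carry binding sites of ETS factors, whose core is GGAA. Each sequence covers the 250 bases before a transcript start listed for the gene by RefSeq (GRCm38.p6), read 5′ to 3′ on the minus strand, where both genes lie. Every GGAA or its reverse complement TTCC is in capitals. The listed start lies 617 bases inside the RefSeq gene span for Kdr and 427 for Flt1, so both windows lie wholly inside that span. Kdr is at chr5:75978456-75978705 and Flt1 at chr5:147726012-147726261. The windows of Tek, whose listed start lies 203 bases inside its span, and Tie1 were searched in the same way.
Kdr: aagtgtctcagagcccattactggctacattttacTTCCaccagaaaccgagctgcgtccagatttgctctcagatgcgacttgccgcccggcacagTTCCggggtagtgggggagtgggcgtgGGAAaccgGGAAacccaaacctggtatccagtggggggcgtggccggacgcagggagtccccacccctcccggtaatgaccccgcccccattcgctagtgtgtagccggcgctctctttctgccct
Flt1: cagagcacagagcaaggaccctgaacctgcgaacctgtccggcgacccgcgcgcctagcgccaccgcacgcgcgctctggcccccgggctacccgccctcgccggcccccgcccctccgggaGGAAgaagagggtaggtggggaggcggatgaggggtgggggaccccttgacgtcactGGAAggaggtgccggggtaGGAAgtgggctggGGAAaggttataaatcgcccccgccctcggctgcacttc

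The core occurred 4 times in the Kdr window, 4 in Flt1, 7 in Tie1 and 2 in Tek. Over all 32851 promoters of this length the median was 3 and 93.4% held at least 1. Annotated exons covered 212 of the 250 bases of the Tie1 window, 3 in Kdr and 0 in Flt1 and Tek. That cover was not measured over all promoters. The GC box GGGCGG, on either strand, occurred 2 times in Kdr and 3 in Flt1 and was not in the Tie1 or Tek windows. It was in 32.7% of all promoters. The TATA box letters TATAAA were in the Flt1 and Figf windows and in 12.4% of all promoters. The core of the hypoxia response element, ACGTG, was in none of the 4 receptor windows and in 16.6% of all promoters. Among the 10 genes, 9 matched an entry, and in these Nrp1 held 4 cores, Figf 3, and Vegfb and Vegfc 1 each. Vegfa, with 2 listed starts, held 6 and 2. The start of the second lies 7214 bases inside the gene, and exons covered 218 bases of its window. In the Figf window exons covered 144 bases. Matches describe letters in these windows only.

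Kdr (Entrez 16542, chromosome 5, 75932827 to 75979072) had the lowest p of the receptors. It stood at 279.9, 261, 288, 228 and 348 CPM in Flox mice 2 to 6, and at 197, 221, 232, 197 and 178 CPM in EpithelialKO mice 17, 18, 20, 21 and 22. Flox mouse 5 was the lowest Flox mouse and the only one within the EpithelialKO range, just under EpithelialKO mouse 20. The mean went from 281 ± 44.0 to 205 ± 21.5 CPM (SD, n = 5 each), which is -0.45 ± 0.11 on the log2 scale (SE; unadjusted p = 0.000813, edgeR adjusted p = 0.123). Its highest values were in Flox mice 6 and 4, those with high Xist, and without them the log2 value was -0.32.

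Flt1 (Entrez 14254, chromosome 5, 147561604 to 147726438) stood at 178, 166, 154, 125 and 187 CPM in Flox mice 2 to 6. In EpithelialKO mice 17, 18, 20, 21 and 22 it stood at 101, 144, 108, 142 and 115 CPM. Again Flox mouse 5 was the only Flox mouse within the EpithelialKO range. The log2 fold change was -0.41 ± 0.12 (SE; unadjusted p = 0.00434, edgeR adjusted p = 0.184). Kdr and Flt1 lie on the chromosome of Shh, whose locus carries Cre, 47.5 and 119 Mb from it.

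Tie1 (Entrez 21846, chromosome 4, 118471191 to 118489849) stood at 254, 201, 218, 211 and 224 CPM in Flox mice 2 to 6. In EpithelialKO mice 17, 18, 20, 21 and 22 it stood at 162, 193, 195, 159 and 134 CPM, every one below every Flox mouse. The log2 fold change was -0.40 ± 0.11 (SE; unadjusted p = 0.00194, edgeR adjusted p = 0.153). Its partner Tek (Entrez 21687, chromosome 4, 94739086 to 94874976) stood at 350.5, 299, 276, 262 and 323 CPM in Flox mice. In the same order of EpithelialKO mice it stood at 214, 228, 307, 240.2 and 205 CPM. EpithelialKO mouse 20 lay within the Flox range and the other 4 EpithelialKO mice lay below it. The Tek log2 fold change was -0.34 ± 0.12 (SE; unadjusted p = 0.00974, edgeR adjusted p = 0.245).

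Nrp1 (Entrez 18186, chromosome 8, 128358591 to 128505476), which mesenchymal cells and macrophages also express, stood at 384, 351, 376, 478 and 432 CPM in Flox mice 2 to 6. In EpithelialKO mice 17, 18, 20, 21 and 22 it stood at 334, 343, 383, 331 and 263 CPM. Flox mouse 5, the lowest Flox mouse for Kdr, Flt1 and Tek, was the highest for Nrp1. The log2 fold change was -0.29 ± 0.11 (SE; unadjusted p = 0.0186, edgeR adjusted p = 0.289), the smallest in size of the 5 receptor genes. Without Flox mouse 5 or without EpithelialKO mouse 22, Nrp1 was not lower at an unadjusted p under 0.05, which left 6 of the 10 genes.

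**Figure D3:**
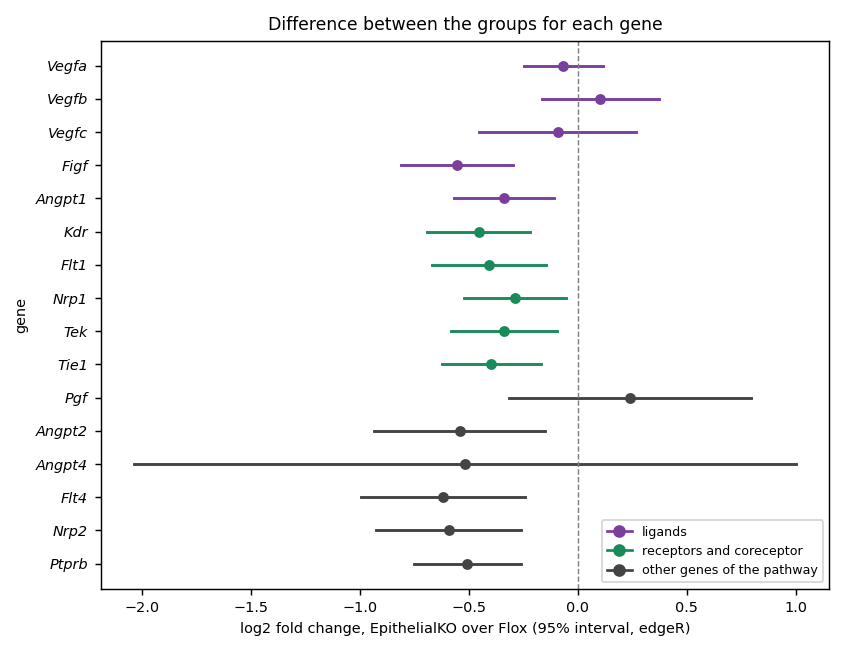
log2 fold change of EpithelialKO over Flox with its 95% interval from the edgeR fit, for the 5 ligands, the 5 receptor genes and 6 further ligands, receptors and a receptor phosphatase of the same pathway. The intervals of Figf, Angpt1 and all 5 receptor genes lie below 0 (Kdr from -0.69 to -0.22), while those of Vegfa, Vegfb and Vegfc include it; no gene shown passed after adjustment over all genes.

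Set against the receptors within each mouse, the Vegfa level per length was a larger multiple of Kdr in most EpithelialKO mice. The ratio of Vegfa to Kdr RPKM was 3.03, 3.22, 2.87, 4.22 and 2.57 in Flox mice 2 to 6, and 4.65, 3.71, 3.71, 4.00 and 4.44 in EpithelialKO mice 17, 18, 20, 21 and 22. Flox mouse 5 alone reached the EpithelialKO range. Vegfa to Flt1 ranged from 8.82 to 14.3 in Flox and from 10.3 to 16.8 in EpithelialKO, again with Flox mouse 5 as the only overlap. Angpt1 to Tek, the mesenchymal ligand against its endothelial receptor, was 0.228 ± 0.0495 in Flox and 0.230 ± 0.0390 in EpithelialKO (SD, n = 5 each). Figf to Kdr was 0.272 ± 0.0418 and 0.250 ± 0.0173. The receptor ratios were 1.32 ± 0.104 and 1.38 ± 0.164 for Tek to Tie1 and 3.22 ± 0.282 and 3.17 ± 0.591 for Kdr to Flt1. These ratios describe the mice and were not tested.

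Endothelial markers outside the set also had mostly negative fold changes. Of the 20 markers 18 had a negative log2 fold change, with a median of -0.20. With edgeR 0 were called and 6 were lower at an unadjusted p under 0.05, against 6.52% of all tested genes. Of all tested genes 49.9% had a negative fold change. The median over the 5 receptor genes was -0.40. Outside endothelium it was -0.34 over 13 fibroblast markers, -0.34 over 8 pericyte markers and -0.39 over 8 smooth muscle markers. Of these, 7, 4 and 4 were lower at an unadjusted p under 0.05, against 6.52% of all tested genes. The median was -0.05 over AT1 markers, and 0.25, 0.50 and 0.46 over AT2, club and ciliated markers. Differences between the lists were not tested. Per 100 CPM of summed endothelial markers, Tie1 was at 3.91, 3.45, 3.46, 3.75 and 3.45 CPM in Flox mice 2 to 6. In EpithelialKO mice 17, 18, 20, 21 and 22 it was at 2.99, 3.39, 3.01, 3.19 and 3.14 CPM, and the groups did not overlap. Kdr was at 4.31, 4.48, 4.56, 4.05 and 5.35 CPM per 100 marker CPM in Flox, and at 3.64, 3.88, 3.59, 3.94 and 4.17 in EpithelialKO. Here Flox mouse 5 and EpithelialKO mouse 22 crossed. Tek ranged from 4.38 to 5.39 and from 3.95 to 4.81, Flt1 from 2.21 to 2.87 and from 1.68 to 2.85, and Nrp1 from 5.91 to 8.47 and from 5.93 to 6.64, all with overlap.

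Among capillary subtypes, the markers of aerocytes, the Kdr-rich capillary cells apposed to AT1 cells, summed to 925, 839, 905, 846 and 839 CPM in Flox mice 2 to 6. In EpithelialKO mice 17, 18, 20, 21 and 22 they summed to 705, 804, 766, 635 and 599.9 CPM, all below every Flox mouse. All 7 aerocyte markers had a negative fold change, with a median log2 value of -0.29, and edgeR called 0 of them. At an unadjusted p under 0.05, 5 were lower, against 6.52% of all tested genes. In 2 of the 7 all EpithelialKO mice lay below all Flox mice, against 1.48% of all tested genes. General capillary markers summed to between 1834 and 2142 CPM in Flox and between 1523 and 2066 CPM in EpithelialKO. Of these 6 markers 4 were negative, the median log2 value was -0.21 and edgeR called 0. At an unadjusted p under 0.05, 3 were lower and 1 higher, against 6.52% and 5.87% of all tested genes. In 1 of the 6 all EpithelialKO mice lay below all Flox mice, again against 1.48% of all tested genes. The 7 lymphatic markers, which include Flt4 and Pdpn, summed to between 401 and 547 CPM and between 329.7 and 513 CPM. Of the 6 tested 4 were negative, with a median log2 value of -0.09 and the lowest, -0.62, for Flt4. The part of these cell types in the receptor values was not tested.

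**Figure D4:**
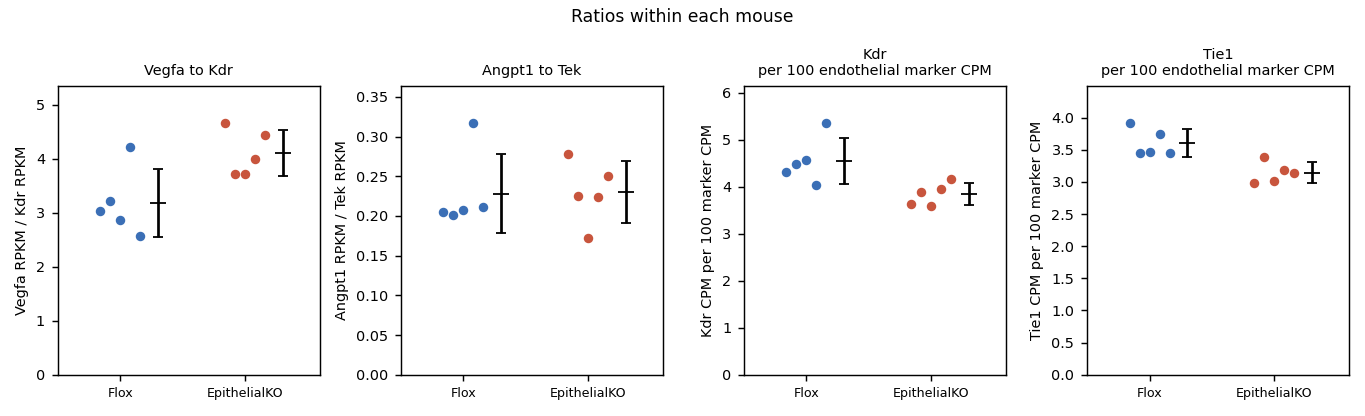
Ratios within each mouse, with 1 point per mouse and the mean ± SD of each group of 5: Vegfa over Kdr and Angpt1 over Tek on levels per kilobase, and Kdr and Tie1 per 100 CPM of the 20 summed endothelial markers. Vegfa over Kdr runs from 2.57 to 4.22 in Flox and from 3.71 to 4.65 in EpithelialKO, and the Tie1 points of the groups do not overlap.

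The other ligands and receptors of the 2 systems had mostly negative fold changes, and edgeR called none on all 10 mice. At an unadjusted p under 0.05, 4 of 6 were lower, against 6.52% of all tested genes. Ptprb, the endothelial phosphatase that restrains TEK and KDR signalling, went from 724 ± 113 to 509 ± 60.5 CPM (SD, n = 5 each), which is -0.51 ± 0.12 on the log2 scale (SE; edgeR adjusted p = 0.108). Nrp2, the coreceptor of VEGF-C, had -0.59 ± 0.16 (edgeR adjusted p = 0.153), and Flt4, the VEGF-C and VEGF-D receptor, -0.62 ± 0.18 (edgeR adjusted p = 0.166). Angpt2, the angiopoietin that endothelium releases and that can oppose Angpt1, had -0.54 ± 0.19 at 17.8 and 12.2 CPM. Pgf, a ligand of FLT1, had 0.24 ± 0.26 at 4.31 and 5.09 CPM and 0.025 without EpithelialKO mouse 17, and Angpt4 had -0.52 ± 0.72 at under 1 CPM. DESeq2, with 2.42% of its genes called, called Ptprb, Nrp2 and Flt4. Without Flox mouse 5, where 0.31% of genes were called, edgeR called Ptprb and Flt4.

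Of 90 further genes of the pathway in 5 lists, the 6 above included, 1 was called, lower, and 0 were higher. Of all tested genes 0.0392% were called. At an unadjusted p under 0.05, 21 were lower and 1 higher, against 6.52% and 5.87% of all tested genes. The median log2 fold change was -0.17, and 67 were negative, against 49.9% of all tested genes. The gene called was Rasgrp3, an endothelial activator of the Ras and Rap GTPases downstream of VEGF receptors. It fell from 94.7 ± 9.01 to 58.8 ± 8.91 CPM (SD, n = 5 each), which is -0.69 ± 0.11 on the log2 scale (SE; edgeR adjusted p = 0.0272). It was listed with an earlier call in these samples known. Its adjusted p lay above 0.05 in 11 of 19 alternatives, 9 of which left out 1 mouse (Flox 2, 3, 4 or 6, or any EpithelialKO mouse), and was 0.214 without Flox mice 4 and 6.

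Among the 34 signal transduction genes, the endothelial Rap-binding protein Rasip1 had -0.40 ± 0.11, the regulatory kinase subunit Pik3r1 -0.27 ± 0.11 and the protein kinase Prkcb -0.51 ± 0.20 as log2 fold changes, none past the threshold in edgeR. DESeq2 called Rasip1 (adjusted p = 0.0459). Of 18 target and feedback genes 15 were negative. All EpithelialKO mice lay below all Flox mice in 1 of the 18, Vash1, against 1.48% of all tested genes. Vash1, an angiogenesis inhibitor that VEGF induces in endothelium, went from 48.8 ± 7.40 to 33.8 ± 4.28 CPM (SD, n = 5 each). Its log2 fold change was -0.53 ± 0.12 (SE, edgeR adjusted p = 0.113). The receptor kinase inhibitor Spry4 had -0.64 ± 0.24, the metalloproteinase Adamts1 -0.71 ± 0.25, and the potassium channel subunit Kcne3 averaged 1.58 CPM over Flox mice and 3.19 CPM over EpithelialKO mice (edgeR adjusted p = 0.365). None of these 4 was called by edgeR, and DESeq2 called Vash1 (adjusted p = 0.0110).

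Of 20 genes that supply, process or trap the ligands, 12 were negative and edgeR called 0. At an unadjusted p under 0.05, 6 were lower, against 6.52% of all tested genes. Ccbe1, the cofactor with which ADAMTS3 activates VEGF-C, had -0.73 ± 0.24 (SE), from 10.3 to 6.21 CPM, and its value was -0.45 without Flox mouse 2. Hspg2, which encodes the matrix proteoglycan perlecan, had -0.31 ± 0.12 and the hypoxia-inducible prolyl hydroxylase Egln3 -0.78 ± 0.34 at 3.55 and 2.05 CPM. Adamts1, which also cleaves matrix that holds VEGF, is on this list too. Of 13 genes, which are semaphorins, plexins and the adaptor Gipc1, 10 were negative and edgeR called 0. At an unadjusted p under 0.05, 4 were lower, against the same 6.52%. Sema3g (-0.35 ± 0.11), Sema3f (-0.31 ± 0.11), Plxnd1 (-0.35 ± 0.14) and Plxna4 (-0.45 ± 0.19) had the lowest p.

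Over the 10 mice, the genes whose log2 CPM followed Kdr most closely among 13744 ranked were Bmp6 (Pearson r = 0.97), Ptprm (0.96), Tmod2 (0.94), Mfap4 (0.94) and Ptprb (0.94). Of the other genes of the set, Tie1 (r = 0.86), Figf (0.84), Tek (0.83) and Flt1 (0.79) followed Kdr, whereas Vegfa (0.26) and Vegfb (-0.02) followed it little. The genes closest to Vegfa were Fhl1 (0.94), Lrrc58 (0.94), Dlgap4 (0.94), Trib2 (0.92) and Mmp14 (0.92), and in the set Angpt1 (0.75) and Nrp1 (0.73). Those closest to Angpt1 were Rcn1 (0.96), Ckap4 (0.93), Dact3 (0.93), Ecm1 (0.93) and Dck (0.91). These values describe 10 libraries that share the difference between the groups, and the 5 named for each gene are the highest of many.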

How the data were processed

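Whole-lung RNA of 5 Flox and 5 EpithelialKO mice was sequenced after Trizol extraction and poly(A) selection, per the labels' protocols. The authors used cutadapt and HISAT2 with GRCm38, per the submitters' processing notes. For versions, counting tool and strand setting the sources used here give nothing. What the authors deposited is a table of unnormalized read counts by Entrez gene. Symbols and coordinates came from RefSeq for GRCm38.p6 (25275 of 27179 genes matched) and exon lengths from the GENCODE M21 basic annotation.

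The 15301 genes kept by filterByExpr entered a quasi-likelihood fit in edgeR 4.0.16 under R 4.3.3 with TMM scaling (robust, group as the only term), with Benjamini-Hochberg adjustment over all genes. Standard errors came from the F statistic. DESeq2 1.42.0 and limma 3.58.1 were alternatives, with other scalings and filters, each mouse left out, Flox mice 4 and 6 left out, sex class as a covariate, and heart, fat and red cell genes removed. Any 2 mice differed by more than counting noise (lowest chi-square per degree of freedom 17.0), and no labels pair them. RPKM is CPM per kilobase of exon union. On simulated data of this comparison (15301 genes), edgeR recovered 31.3% of genes changed 1.5-fold, 68.2% at 2-fold and 88.9% at 4-fold.

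The genes, lists and tests were chosen with earlier results of these data known. All 10 genes are named. Of each pathway list the 4 genes of lowest p are named, all 6 of the further ligands and receptors, and for Kdr, Vegfa and Angpt1 the 5 genes of highest r at 1 CPM or more (log2 CPM with a prior count of 2).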

Additional observations from a re-analysis of the deposited data

Results flagged for a closer look

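In 84 groups of 5 values checked, 6 held a mouse whose distance to its nearest neighbour was over 0.71 of the range of the group. Chance alone gives about 1 in 20 such groups. Angpt1 in EpithelialKO mouse 17 was at 53.8 CPM, above 46.5 to 48.6 CPM in the other 4. Kcne3 in EpithelialKO mouse 22 was at 5.86 CPM, above 2.12 to 2.74 CPM. Ccbe1 in Flox mouse 2 was at 17.6 CPM, above 7.28 to 9.86 CPM. The other 3 were all ratios in Flox mouse 5. Its Vegfa to Flt1 ratio was 14.3 against 8.82 to 9.92 in the other Flox mice, its Angpt1 to Tek ratio 0.317 against 0.201 to 0.211, and its Nrp1 level per 100 endothelial marker CPM 8.47 against 5.91 to 6.64. Flox mouse 5 also had the lowest total of the 10 mice, 14983829 counts.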

How the results depend on the processing

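No paired analysis was possible because the groups share no mouse numbers. The same 7 genes were lower at an unadjusted p under 0.05 in 17 of 19 alternatives and 6 of them in the fits without Flox mouse 5 or EpithelialKO mouse 22. Genes called over the whole table numbered 6 in the edgeR fit on all mice, 275 in DESeq2, 29 in limma-voom, 34 with no count filter, 1 in the fit with a sex class term, 0 without Flox mice 4 and 6 and 0 to 48 with 1 mouse left out (48 without Flox mouse 5, 0 without any other mouse). Of the 10 genes, 3 were called in DESeq2 and 0 to 1 with 1 mouse left out. Of the further pathway genes, 6 were called in DESeq2, 0 in the fit with a sex class term, 0 without Flox mice 4 and 6 and 0 to 3 with 1 mouse left out, again highest without Flox mouse 5. For Vegfc the log2 fold change turned in sign, to 0.093 without Flox mice 4 and 6 and 0.092 in the fit with the sex class term, and ranged from -0.20 (Flox mouse 5 out) to 0.040 (Flox mouse 6 out) with 1 mouse left out. The other 9 genes kept their sign throughout. Kdr weakened from -0.45 to -0.32 both without Flox mice 4 and 6 and with the sex class term (edgeR adjusted p = 0.547 and 0.462). Flt1 weakened from -0.41 to -0.35 and -0.36, while Angpt1 went from -0.34 to -0.41 in both. Outside the 10 genes, Flt4 went from -0.62 to -0.44 and Vash1 from -0.53 to -0.38 in both. The group differences in the ratios moved by less than 1 SD in every alternative run. Leaving out 1 of 5 mice could hardly break that bound. In sign, the log2 difference turned for Angpt1 to Tek (0.016, lowest -0.056) and Kdr to Flt1 (-0.038, highest 0.034). It also turned for Nrp1 per 100 endothelial marker CPM (-0.081, highest 0.012), and the other ratios kept their sign. In data simulated with 200 changed genes drawn at random from all tested genes, 31.3% of 1.5-fold changes were recovered. That share was not measured at the levels of these 10 genes, whose fitted differences were all smaller than 1.5-fold.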

Other observations

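Marker sums of cell types not described above were as follows, from Flox to EpithelialKO mice. Club cell markers ranged from 22258 to 47932 and from 35249 to 55272 CPM, and ciliated cell markers from 604 to 868 and from 754 to 1064 CPM, with all 7 and all 8 fold changes positive. With edgeR 0 of them were called, and 4 and 5 were higher at an unadjusted p under 0.05, against 5.87% of all tested genes. Smooth muscle markers, which mark cells around the larger vessels and airways, ranged from 373 to 485 and from 279.5 to 491 CPM. Of these markers 8 of 8 were negative and edgeR called 0. At an unadjusted p under 0.05, 4 were lower, against 6.52% of all tested genes. Markers of platelets and megakaryocytes, which also carry Angpt1, ranged from 49.4 to 83.0 and from 55.0 to 92.2 CPM. Adipocyte markers ranged from 47.7 to 245 and from 61.4 to 206 CPM, erythroid markers from 1151 to 4846 and from 2186 to 5473 CPM, leukocyte markers from 358 to 515 and from 288 to 432 CPM, and mesothelial markers from 406 to 738 and from 300.0 to 702 CPM. Their part in the values of the 10 genes was not tested.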
